A study of Mus musculus with 8 samples.

Results

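The 32 genes described here carry out or control fatty acid oxidation: activation of fatty acids, the carnitine shuttle, mitochondrial and peroxisomal β-oxidation, electron transfer, thioesterases and the PPAR-responsive regulators Pdk4 and Angptl4. They were taken as a named list, out of 35325 genes with an annotated transcription start site (TSS). Peaks of open chromatin overlapping each gene body plus 10 kb on each side (mm10, GENCODE M21) were merged across libraries where they shared a base, and a region was kept when at least 2 libraries had a peak in it. This gave 145 regions out of 72711 in the whole series. Of these, 55 were promoters, whose summit lay within 1 kb of a TSS (38 at a TSS of the member itself and 17 at a TSS of another gene), and 90 were distal. Each gene had between 1 and 13 regions, with a median of 4, and 5 regions lay in the windows of 2 members.

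ATAC-seq, which marks open chromatin by where Tn5 transposase can cut, was run on mature alveolar macrophages (AMs; CD11b-/SiglecF+) sorted from bronchoalveolar lavage of adult C57BL/6J mice. KO mice were CD11cCre+ Rxrabfl/fl and so lost RXRα and RXRβ where the CD11c promoter drives Cre. WT mice were CD11cCre- Rxrabfl/fl littermates, so that the controls carried the floxed alleles as well. There were 4 KO libraries (replicates 1_2, 1_3, 2 and 3) and 4 WT libraries (1_2, 1_3, 3 and 4), and values are given below in these orders. Animals of both sexes were used, and the sex behind each library was not given. The submitters call the libraries biological replicates, but whether 1_2 and 1_3 share an animal is not stated, so the p-values measure the spread between these libraries, which may in part be technical.

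Long-chain fatty acids are joined to coenzyme A, carried into mitochondria as acylcarnitines and shortened by cycles of dehydrogenation, hydration, dehydrogenation and thiolysis, while electrons leave through the electron transfer flavoprotein. Peroxisomes start the oxidation of fatty acids that are poor substrates for mitochondria. RXRs pair with PPARs and other nuclear receptors on a DR1 element, a direct repeat of the hexamer AGGTCA with 1 base between the copies, and many genes of this pathway are classical PPAR targets. AMs take up and break down surfactant lipid.

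The DR1 matches in the members' own promoters are shown because this is the sequence that an RXR heterodimer with a PPAR binds. Within 100 bp of the region summit, on either strand and with at most 2 mismatches over the 13 bases, a match was found in 5 of the 55 member promoters (9.09%) against 2.07% of all promoter regions, and all 5 were at the member's own TSS. Each is printed 5′ to 3′ on the strand of the match, in mm10, with the matched 13 bases in capitals. The first differs from the repeat at 1 base and the other four at 2, and the first and last overlap an annotated UTR.

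Acadvl, chr11:70015340-70015368, minus strand: aagagaagAGGTCAGTGGTCAagacttcg

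Cpt1a, chr19:3322368-3322396, minus strand: agagtcgcAGCTCTGAGGTCAagcacgcc

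Echs1, chr7:140116484-140116512, minus strand: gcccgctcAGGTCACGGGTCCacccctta

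Etfa, chr9:55512300-55512328, plus strand: ttgggagtAGGGCAAAGGTAAgggtgtgc

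Slc25a20, chr9:108662134-108662162, plus strand: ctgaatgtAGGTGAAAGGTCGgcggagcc

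In distal regions the motif was found in 4 of 90 member regions (4.44%) against 4.74% of all distal regions. None of the 24 member regions that differed between KO and WT held a match within this window. With at most 3 mismatches, matches were found in 36.7% of member distal regions against 23.8% of all distal regions, in 25.5% of member promoters against 14.1% of all promoters, and in 6 of the 14 lower and 3 of the 10 higher member regions. The sequences around the summits of 4 of the 24 regions that differed are given next, on the plus strand, because these 4 had the smallest p-values. Of these, the Acadm and Angptl4 introns held no match with at most 3 mismatches. Capitals mark GAGGAA, the core bound by PU.1 and other ETS factors, or AGGTCA, in either orientation. GAGGAA was found in 12.7% of member promoters and 36.7% of member distal regions, against 24.9% of all promoters and 42.0% of all distal regions.

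Hadhb intron, chr5:30172133-30172233: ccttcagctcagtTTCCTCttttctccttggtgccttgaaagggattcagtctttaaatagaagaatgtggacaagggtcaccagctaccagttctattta

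Acadm intron, chr3:153940166-153940266: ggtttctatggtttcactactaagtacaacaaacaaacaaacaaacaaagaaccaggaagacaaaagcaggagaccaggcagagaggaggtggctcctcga

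Cpt2 intron, chr4:107922030-107922130: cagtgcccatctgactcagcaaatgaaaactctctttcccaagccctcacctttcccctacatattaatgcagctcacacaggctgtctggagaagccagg

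Angptl4 intron, chr17:33779384-33779484: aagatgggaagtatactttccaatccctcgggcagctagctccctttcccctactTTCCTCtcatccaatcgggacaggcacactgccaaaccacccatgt

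The measured quantity was the number of tags piled up at a peak's summit, worked back from the deposited fold enrichment and −log10 p-value. Summit tags were divided by each library's median over the 47499 regions that had a peak in all 8 libraries, and put back on the scale of tags ("scaled summit tags", mean ± SD, n = 4 per genotype). Differences are log2, KO minus WT, with 0.5 tags added, and were tested with limma over all 47499 regions. Regions with a Benjamini-Hochberg adjusted p under 0.05 are called lower or higher below. In these pools of cells, fewer cells with an open site and a less open site in each cell cannot be told apart.

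The lists held 60363 to 65009 peaks in KO and 61240 to 72484 in WT. Of 8 AM markers, 6 had a promoter peak in all 8 libraries, and so did all 5 general macrophage markers, whereas Chil3 and Krt79 had none. Markers of T cells, B cells and eosinophils had no promoter peak (0 of 3 each), but promoter peaks in all libraries were also present at 2 of 3 monocyte, neutrophil and dendritic cell markers and at 1 of 3 epithelial and endothelial markers. An intron region of Rxra (chr2:27744546-27744950), a targeted gene, had 38, 46, 38 and 42 tags in WT and no peak in any KO library. The Rxrb promoter had a peak in all 8, which says nothing of the deletion. KO libraries 1_2 and 1_3 differed by no more than sampling noise (chi-square per region 0.980), as did KO 2 and 3 (1.01), against 1.10 to 1.27 for the other KO pairs and 1.12 to 1.99 for WT pairs. The ratio of peak tags to background differed within both pairs (36.6 and 40.6, 43.5 and 50.7), so they were kept as separate libraries, and the counts with each pair taken as 1 sample are given beside the main ones.

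In the main test, the regions of the fatty acid oxidation genes that fell in KO were all distal, and most of those that rose were promoters. Of the 112 member regions with a peak in all 8 libraries, 24 differed between KO and WT: 14 were lower, all of them distal, and 10 were higher, 6 promoters and 4 distal regions. Counting each pair of closely matching KO libraries as 1 sample left 9 lower and 6 higher, and leaving out KO 2 left 9 lower and 9 higher. Lower promoters appeared in some alternatives: 2 when regions with missing peaks were kept in the test, 1 without KO 3 and 1 without WT 1_3. With promoters taken within 2 kb of a TSS instead of 1 kb, 2 lower regions counted as promoters and 12 as distal. The absence of lower promoters thus depends in part on the 1 kb limit. Member promoters without a peak in every library were not tested, and each had a peak in fewer KO than WT libraries. These were 0 against 4 in the window of Crat, 2 against 4 at Pex11a and 1 against 3 at Ehhadh. At Eci2, Acaa2 and Acsl1 they were 0 against 2. Among the 49 tested promoters 0 were lower and 6 (12.2%) were higher, where the shares over all tested promoters were 2.77% and 6.84%. Their median difference of 0.10 was close to that of all promoters (0.09). Among the 63 tested distal regions 14 (22.2%) were lower and 4 (6.35%) were higher, against 8.71% and 5.4% of all tested distal regions. The median distal difference was −0.14 at member genes and 0.01 over all distal regions, and 45 of 63 differences (71.4%) were negative, against 48.2%.

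The negative distal differences lay mainly inside the gene bodies. Of the 35 tested distal regions inside a member gene, 31 (88.6%) were negative, 11 (31.4%) were lower and 1 (2.86%) was higher, with a median of −0.29. Over all distal regions inside protein-coding genes 49.7% were negative, 8.98% were lower and 5.09% were higher. The 28 tested distal regions outside the members' bodies, some of them inside neighbouring genes, had 3 lower (10.7%), 3 higher (10.7%) and a median of 0.01. Over all distal regions outside protein-coding genes 8.37% were lower and 5.78% higher, with a median of 0.02. This split was made after the values were seen. Regions of the same gene are not independent, and Acsl1 alone gave 8 of the regions inside a member gene. By gene, all tested distal differences, inside or outside the body, were negative at 16 of the 28 genes with such a region.

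The local background around the peaks moved with these regions. The authors' fold enrichment divides the summit by the background that the peak caller estimated from surrounding sequence, and this background was lower in KO by a median of −0.15 (log2) at member distal regions and −0.36 at the 14 lower ones, against 0.04 over all distal regions and −0.26 over all lower distal regions. On fold enrichment in place of tags, the member distal median was 0.01 against 0.02 over all distal regions, and 3 member regions were lower and 8 higher: 3 lower and 4 higher of 63 distal regions, where 2.79% and 1.53% of all distal regions were called, and 4 higher of 49 promoters, against 0.922%. Summit tags and the estimated background were thus both lower in KO. Neighbouring regions shared nearly the same background, as at the intron, exon and promoter regions of Angptl4 (−0.436, −0.441 and −0.442). The estimate thus takes in neighbouring peaks and is not independent of the summit tags. How much of the distal difference belongs to peaks and how much to their surroundings was not tested. Scaling by genome-wide background depth instead of peak tags gave 6 lower and 3 higher regions, none of them a promoter, and left the distal median at −0.20. Calls over the whole series fell as well with that scaling, to 5.23% lower and 1.49% higher of distal regions and 0.506% higher of promoters, and the median of all distal regions was −0.04.

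**Figure D1:**
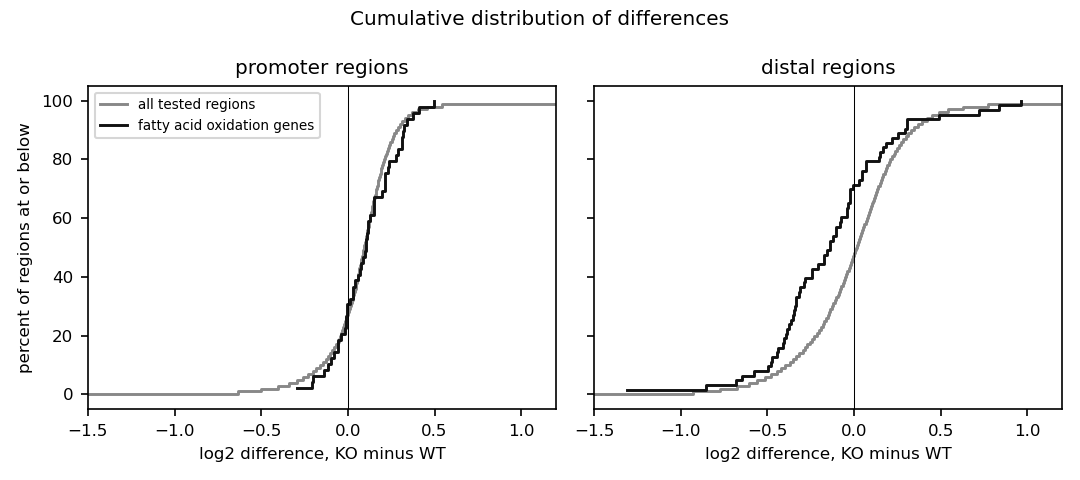
Cumulative distributions of the log2 difference in summit tags (KO minus WT) for promoters and distal regions with a peak in all 8 libraries, with all tested regions in grey and the fatty acid oxidation genes in black. At promoters the curves run close together (medians 0.10 and 0.09). The distal curve of the members lies to the left of all distal regions over most of its range (medians −0.14 and 0.01). Near its upper end it crosses to the right.

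**Figure D2:**
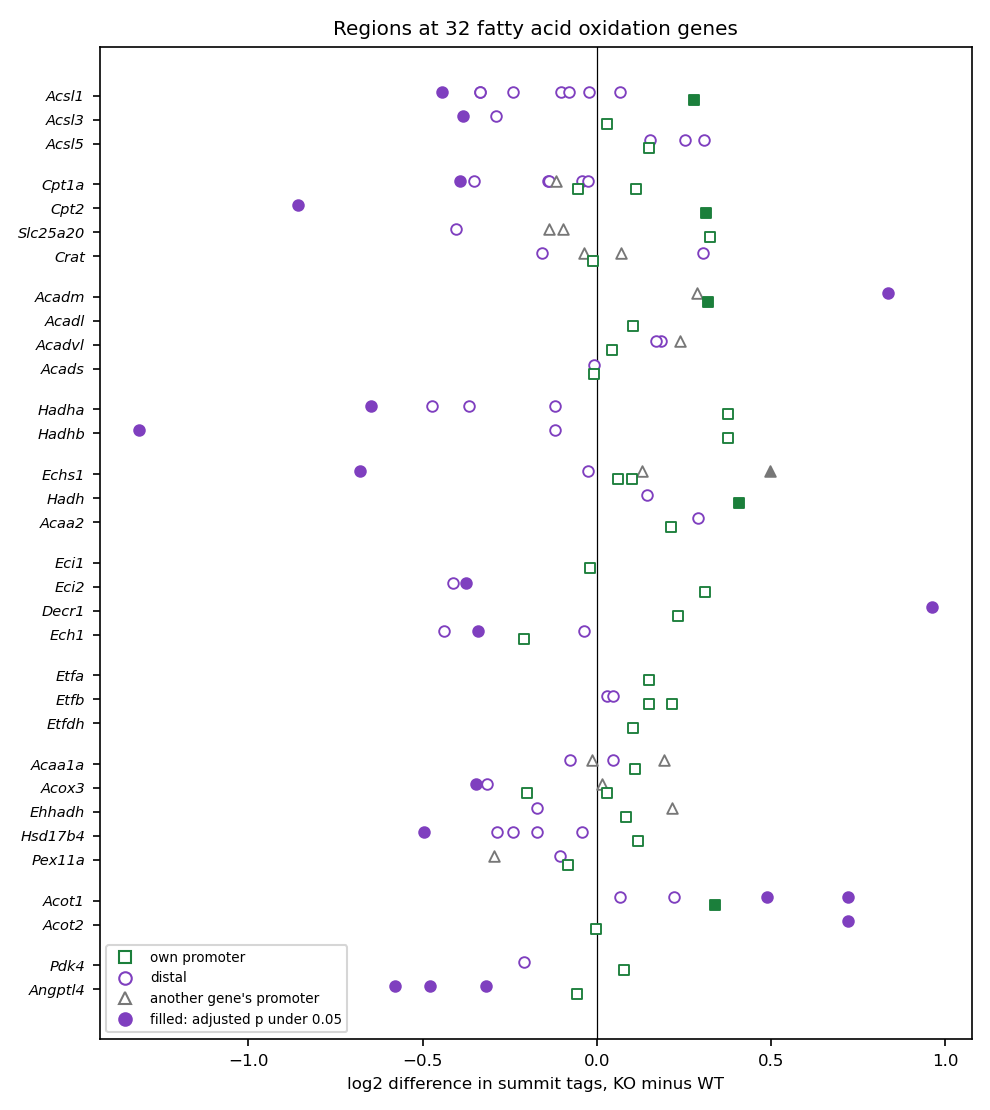
Log2 difference in summit tags (KO minus WT) of each tested region, by gene and grouped by role, with squares for the gene's own promoter, circles for distal regions, triangles for promoters of other genes and filled symbols for an adjusted p under 0.05. The 14 lower regions are all distal, and own promoters range from −0.21 (Ech1) to 0.41 (Hadh).

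The genes' own promoters were open in every library. Hadha and Hadhb, which lie head to head, share 1, and taking the strongest region of each gene gave 31 distinct promoters. In WT their scaled summit tags ranged from 42.4 (the shared Hadha and Hadhb promoter) to 590 (Etfdh), with a median of 123. By the mean over KO and WT libraries, 13 of 31 lay above the 90th percentile of all 72711 regions. These include the regions without a peak in every library. Differences were positive at 23 and negative at 8, with a median of 0.11. This was close to all tested promoters, of which 9741 of 13452 were positive and 27.6% negative, with a median of 0.09. The promoters of Acsl1, Cpt2, Acadm, Hadh and Acot1 were higher in KO, none was lower, and 26 were not called. Of all tested promoters 6.84% were higher and 2.77% lower.

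The activation genes Acsl1, Acsl3 and Acsl5 encode long-chain acyl-CoA synthetases. The Acsl1 promoter (chr8:46470131-46471613) had 283, 271, 306 and 305 scaled summit tags in KO and 240, 221, 242 and 257 in WT, so that every KO library was above every WT library (log2 difference 0.28, SE 0.0811, limma adjusted p = 0.0160). An Acsl1 intron region (chr8:46484952-46485366) had 91.6, 78.8, 122 and 87.9 in KO and 131, 121, 132 and 129 in WT, a difference of −0.44 (SE 0.114, limma adjusted p = 0.00536), and KO 2 reached into the WT range. Both calls were lost with background-depth scaling (adjusted p 0.607 and 0.0502 in limma) and on fold enrichment (0.0877 and 0.397). The promoter call was also lost without KO 3 (0.0662) or WT 3 (0.0521) and with the KO pairs averaged (0.102).

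Acsl1 held the longest row of tested distal regions, 8 in all, of which 7 were negative and 1 was called. Its distal region with the most tags (chr8:46533898-46534385, intron) did not pass the test, at 240 ± 24.8 in KO and 253 ± 8.45 in WT. It held a DR1 match with 2 mismatches (chr8:46534066-46534094, minus strand, the 13 bases in capitals), tggagagaTGGTCAGCGGTCAggagcact.

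At Acsl3, an intron region 45.2 kb into the gene (chr1:78702830-78703334) fell from 229 ± 6.33 in WT to 175 ± 10.8 in KO. Its KO values were 191, 172, 168 and 170 and its WT values 235, 232, 226 and 221, with no overlap (−0.38, SE 0.0853, limma adjusted p = 0.00126). The call was lost with background-depth scaling (−0.44, adjusted p = 0.0749 in limma) and on fold enrichment, where the difference was −0.03 beside a local background lower in KO by −0.34. At Acsl5 the 3 tested distal regions and the promoter were all positive, and none was called.

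The carnitine shuttle consists of Cpt1a, which makes acylcarnitines at the outer membrane and is the controlled step of entry, the translocase Slc25a20, Cpt2, which returns the acyl group to coenzyme A inside, and Crat, a carnitine acetyltransferase. Its distal regions were negative in 9 of 10, with 2 lower, where 48.2% of all tested distal regions were negative and 8.71% lower. At Cpt2 the promoter and the intron just behind it moved in opposite directions. The intron region, 1.48 kb from the TSS (chr4:107921915-107922316), had 41.8, 53.5, 45.1 and 35.7 scaled tags in KO and 78.3, 84.1, 75 and 80.1 in WT. All 4 KO libraries were below all WT libraries, the difference was −0.86 (SE 0.143, limma adjusted p = 2.23e-05), and the call held in each of 17 alternatives to the test (other scalings, filters and ways of averaging libraries, a replicate block, and leaving out each library). The local background there differed by only −0.04. The Cpt2 promoter (chr4:107923341-107923850) had 211, 200, 230 and 230 in KO and 190, 176, 171 and 165 in WT, again without overlap (0.31, SE 0.0874, limma adjusted p = 0.0118). The promoter call was lost with background-depth scaling (adjusted p = 0.502 in limma), with the KO pairs averaged (0.0782) and without KO 3 (0.0512).

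Cpt1a had the most regions of any member, 13, of which 9 were present in all libraries. Its promoter (chr19:3323097-3323561) had 167, 158, 188 and 160 in KO and 174, 144, 130 and 178 in WT and was not called (0.11, SE 0.0996, limma adjusted p = 0.498). The strong intron region 16.1 kb from the TSS (chr19:3338897-3339907) had 201, 179, 221 and 234 in KO and 256, 235, 278 and 330 in WT. These groups did not overlap, although KO 3 came close to WT 1_3, and the difference was −0.39 (SE 0.0932, limma adjusted p = 0.00258). On fold enrichment this difference was 0.01 (adjusted p = 0.969 in limma), beside a local background lower in KO by −0.38. The call was also lost with background-depth scaling (0.0645) and when regions with missing peaks were kept in the test (0.0514).

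A further intron region of Cpt1a (chr19:3330686-3330974) was a peak in all WT libraries and in no KO library. It had 14, 22, 25 and 20 unscaled summit tags in WT, over a local background of 2.52 to 4.2 tags per 200 bp. A region in a Crat intron, 0.676 kb from a TSS of the overlapping gene Gm16323 (chr2:30414273-30414534), showed the same occupancy, with 54, 57, 59 and 69 tags over a background of 13.1 to 16.4. These were the 2 member regions with 4 WT and 0 KO peaks (1.38%), against 0.82% of all regions. No member region had 4 KO and 0 WT peaks, against 0.285% of all regions. With lists cut to equal length 1 WT-only region was left, the one in Crat. A missing peak shows only that the q threshold was not reached, and the smallest summits called in these libraries had 6 to 9 tags.

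The promoter of Slc25a20, which carries a DR1 match, had 88.4 ± 4.70 in KO and 71.1 ± 11.7 in WT and missed the threshold (0.32, SE 0.126, limma adjusted p = 0.0825). The strongest promoter region of Crat was at 219 ± 11.1 and 222 ± 25.9.

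**Figure D3:**
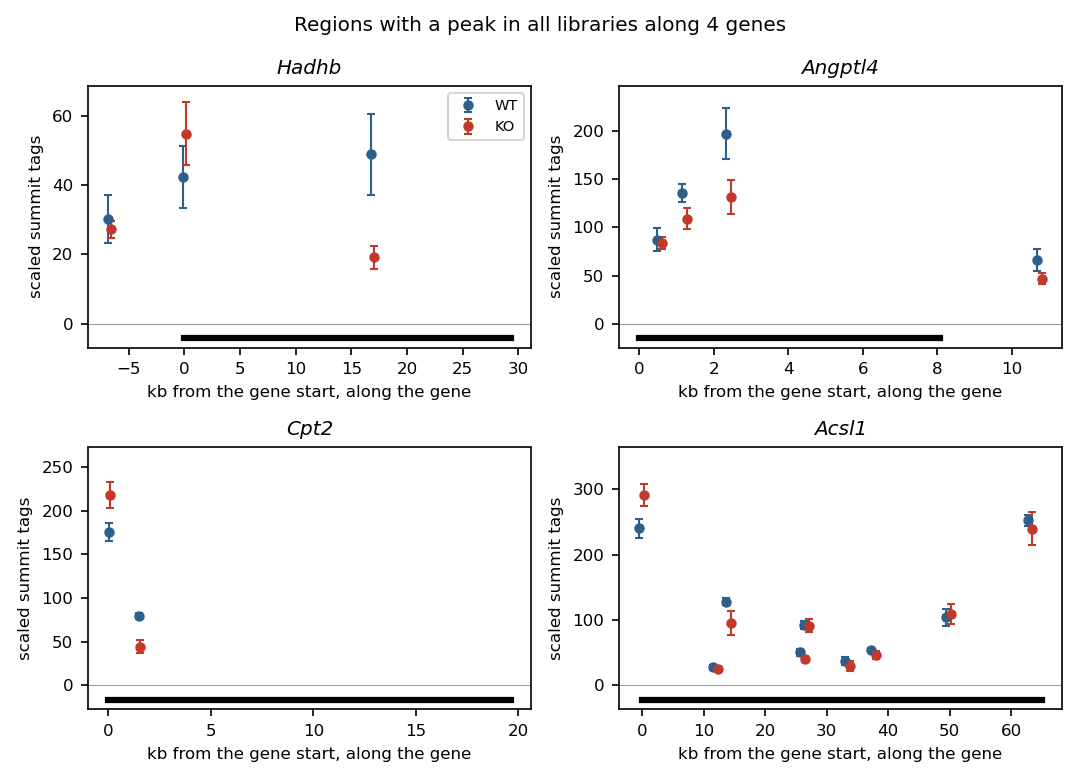
Scaled summit tags (mean ± SD, n = 4 libraries per genotype) of regions called a peak in every library at Hadhb, Angptl4, Cpt2 and Acsl1, placed by distance from the gene start in kb, with the gene body as a black bar and KO and WT points offset sideways for legibility. The Cpt2 promoter is higher in KO (218 against 175) and its intron region lower (44.0 against 79.4), and the Hadhb intron region stands at 19.2 against 48.9.

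Acadm, Acadl, Acadvl and Acads encode the acyl-CoA dehydrogenases for medium, long, very long and short chains. At Acadm both the promoter and an intron region rose. The promoter (chr3:153943871-153945006) had 347, 335, 395 and 339 in KO and 297, 266, 281 and 291 in WT, without overlap (0.32, SE 0.0785, limma adjusted p = 0.00392). An Acadm intron region 4.42 kb from the TSS (chr3:153940009-153940397, sequence above) had 176, 132, 120 and 115 in KO and 106, 77.4, 65.9 and 57.5 in WT. Every KO library was above every WT library, and the difference of 0.84 (SE 0.136, limma adjusted p = 1.33e-05) was the second largest rise among the members. Both Acadm regions also had a higher local background in KO (0.27 at the promoter and 0.26 in the intron), and on fold enrichment neither was called (0.06 and 0.59, limma adjusted p = 0.752 and 0.0600). The promoter was not called with background-depth scaling either (0.482).

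The promoter of Acadvl, with the DR1 match closest to the repeat, was at 90.5 ± 11.3 in KO and 89.0 ± 19.2 in WT (0.04, limma adjusted p = 0.872). Its KO libraries had 107, 88.9, 80.1 and 86.7 and its WT libraries 81.2, 66.9, 96.1 and 112, a full overlap. Acadl had a single region, its promoter, at 204 ± 22.3 in KO and 190 ± 23.4 in WT, and the Acads promoter was at 94.4 ± 5.31 and 96.1 ± 18.5. Neither was called.

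Hadha and Hadhb encode the subunits of the mitochondrial trifunctional protein, which carries out the last steps of the cycle on long chains. The 5 tested distal regions in their windows were all negative, with a median of −0.47, and 2 were lower. Among all tested distal regions 48.2% were negative and 8.71% lower, with a median of 0.01. The Hadhb intron region, 16.9 kb from the TSS (chr5:30171988-30172466, sequence above), had 15.9, 21.2, 17 and 22.6 in KO and 46.4, 37.9, 45.7 and 65.4 in WT. The highest KO library was well below the lowest WT library, and the difference of −1.31 (SE 0.190, limma adjusted p = 1.49e-06) was the largest in either direction among the member regions tested. The call held in all 17 alternatives, and on fold enrichment the difference was −0.88 (limma adjusted p = 0.00536).

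A Hadha intron region 19.9 kb from its TSS (chr5:30135083-30135632) had 29.9, 24.3, 30.5 and 40.4 in KO and 45.4, 56.5, 51.2 and 41.8 in WT, without overlap (−0.65, SE 0.174, limma adjusted p = 0.00845). It was not called on fold enrichment (−0.22, adjusted p = 0.420 in limma) or with missing peaks kept in the test (0.0560). The promoter that both genes share (chr5:30154687-30155707) had 46.8, 51.5, 67.7 and 53.5 in KO and 39.6, 55.0, 41.1 and 33.9 in WT. Its groups overlapped and the difference of 0.38 (SE 0.163) was not called (limma adjusted p = 0.124), although leaving out WT 1_3 brought it to 0.51 (0.0448).

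Echs1, Hadh and Acaa2 encode the enoyl-CoA hydratase, the hydroxyacyl-CoA dehydrogenase and a thiolase for shorter chains. The Hadh promoter (chr3:131271194-131272464) had the largest positive difference of the own promoters, with 153, 139, 162 and 118 in KO and 120, 116, 102 and 92.5 in WT (0.41, SE 0.109, limma adjusted p = 0.00789). KO 3 lay below WT 1_2, so the groups overlapped slightly. The Hadh call was lost in 3 of the 17 alternatives, among them background-depth scaling (adjusted p = 0.259 in limma) and the test that kept regions with missing peaks (0.0541). The promoters of Echs1 and Acaa2 were at 333 ± 17.1 against 311 ± 21.2 and at 196 ± 11.0 against 170 ± 15.9 (KO against WT), and were not called.

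The called regions in the Echs1 window lay at its neighbours. The promoter of Paox, a polyamine oxidase gene (chr7:140125269-140126094), had 177, 175, 184 and 161 in KO and 121, 131, 117 and 124 in WT, a rise without overlap (0.50, SE 0.0939, limma adjusted p = 0.000152), and was not called with background-depth scaling (0.0851). An intron region of Prap1 (chr7:140096023-140096461) had 20.9, 23.2, 22.6 and 26.2 in KO and 34.8, 40.9, 33.8 and 40.6 in WT, also without overlap (−0.68, SE 0.180, limma adjusted p = 0.00753), and held in all 17 alternatives.

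Eci1, Eci2, Decr1 and Ech1 prepare unsaturated fatty acids for the cycle by moving or reducing their double bonds. Upstream of Decr1, 6.77 kb from its TSS and 5.65 kb from that of Nbn (chr4:15952110-15952457), a weak region had 31.9, 23.2, 21.5 and 28.6 in KO and 11.6, 14.8, 13.7 and 12.5 in WT. All KO libraries were above all WT libraries (0.96, SE 0.206, limma adjusted p = 0.000797), the largest rise among the members, and the call held in all 17 alternatives. The summit of this region lies in a tandem repeat: 56% of the bases equal the base 35 positions on, against 31.7% to 46.6% at the best shift in the other 23 called regions. The part that the placing of reads among the copies plays in these counts was not tested.

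Repeat copies can be seen in the sequence around its summit, chr4:15952225-15952325, plus strand: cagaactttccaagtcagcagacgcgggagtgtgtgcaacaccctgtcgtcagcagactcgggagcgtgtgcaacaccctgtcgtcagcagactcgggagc

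Lower regions in this group were an Eci2 intron (chr13:34991365-34991927), at 87.7 ± 6.17 in KO and 115 ± 22.2 in WT (−0.37, limma adjusted p = 0.0282), and a region in an intron of Hnrnpl, 3.92 kb upstream of Ech1 (chr7:28820934-28821477), at 89.1 ± 7.06 and 113 ± 13.7 (−0.34, 0.0360). In neither did the groups overlap. The Eci2 call was lost in 9 and the Ech1 call in 11 of the 17 alternatives, and without any of KO 1_3, KO 3, WT 1_3 or WT 4 (Eci2, limma adjusted p 0.0638 to 0.143) or any of KO 1_2, KO 1_3, KO 2, WT 3 or WT 4 (Ech1, 0.0676 to 0.116). The Ech1 region turned to 0.07 on fold enrichment. The Ech1 promoter had the lowest difference of the own promoters (−0.21, limma adjusted p = 0.201), and those of Eci2 and Decr1 were at 0.31 and 0.23 (0.0864 and 0.148).

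Etfa and Etfb encode the electron transfer flavoprotein and Etfdh its dehydrogenase, which passes electrons on to ubiquinone. Their promoters were among the strongest of the list, with Etfdh at 633 ± 19.6 in KO and 590 ± 43.4 in WT, Etfa at 264 ± 25.4 and 237 ± 14.4, and Etfb at 228 ± 3.97 and 197 ± 15.5. All 4 promoter regions of these genes were positive, between 0.10 and 0.22, and none was called. Among all tested promoters 27.6% were negative. Etfa and Etfdh had no region other than their promoter.

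**Figure D4:**
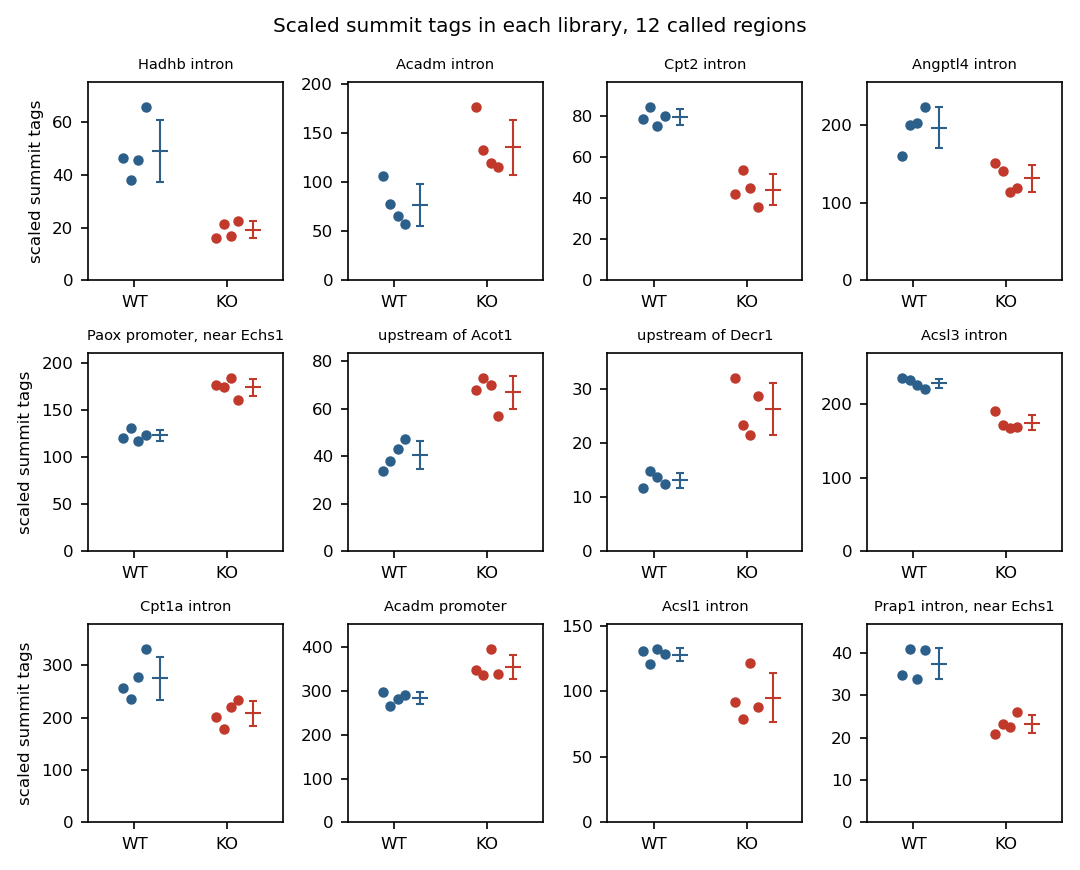
Scaled summit tags in each library (points) with mean ± SD (bars, n = 4) at the 12 called member regions of smallest p-value, in order of p. In the Acsl1 intron, KO 2 (122) lies above WT 1_3 (121), and at the other regions, which were picked by p, the points do not overlap.

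The peroxisomal genes were Acaa1a, a thiolase, Acox3, an acyl-CoA oxidase, Ehhadh and Hsd17b4, the bifunctional enzymes, and Pex11a, which acts in peroxisome division. Their distal differences were negative in 10 of 11, with 2 lower, against 48.2% negative and 8.71% lower among all tested distal regions. An Hsd17b4 intron region 5.84 kb from the TSS (chr18:50133794-50134240) had 64.7, 55.6, 50.8 and 74.8 in KO and 82.2, 93.0, 82.3 and 86.9 in WT, without overlap (−0.50, SE 0.132, limma adjusted p = 0.00758). It was lost on fold enrichment (0.249) and without KO 2 (−0.40, limma adjusted p = 0.0512). An Acox3 intron region (chr5:35609393-35610281) had 188, 172, 121 and 152 in KO and 195, 202, 186 and 212 in WT (−0.35, SE 0.101, limma adjusted p = 0.0158), with KO 1_2 inside the WT range. Its call rested on KO 2 (−0.21, limma adjusted p = 0.174 without it) and was lost in 5 other alternatives, and on fold enrichment the difference was 0.05.

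Another Hsd17b4 intron region (chr18:50149696-50150025) had a peak in all WT libraries (14, 20, 15 and 12 tags) and in KO 2 (13 tags). Downstream of Acox3 (chr5:35619574-35619911) a peak was present in KO 1_3, 2 and 3 (11, 14 and 9 tags) and in no WT library. The region with the most tags near Acaa1a, in an intron of Slc22a14 (chr9:119334211-119334778), was at 212 ± 12.2 in KO and 224 ± 16.3 in WT and was not called. None of the 11 tested promoters in the windows of the peroxisomal genes was called, where 2.77% of all tested promoters were lower and 6.84% higher.

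The thioesterases Acot1 and Acot2 split acyl-CoA into free acid and coenzyme A, Acot1 in the cytosol and Acot2 in mitochondria. All 4 tested distal regions in their windows were positive, and 2 were higher. Among all tested distal regions 48.2% were negative and 5.4% higher. Distal differences were also positive in 3 of 4 regions of the acyl-CoA dehydrogenase genes and in both regions of the electron transfer genes. Between the genes, 5.48 kb upstream of Acot1 (chr12:84003775-84004286), scaled tags were 67.7, 72.7, 69.9 and 57 in KO and 33.8, 37.9, 43.0 and 47.4 in WT, without overlap (0.72, SE 0.151, limma adjusted p = 0.000645), and the call held in all 17 alternatives. The local background was higher in KO there by 0.38.

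The Acot1 promoter (chr12:84009195-84009952) had 139, 103, 124 and 126 in KO and 97.7, 94.5, 89.7 and 105 in WT (0.34, SE 0.109, limma adjusted p = 0.0304), with KO 1_3 below WT 4. The call was lost without any of KO 1_2, KO 2, KO 3, WT 1_2, WT 1_3 or WT 3 (limma adjusted p 0.0529 to 0.159) and in 4 of the other alternatives. A region 9.68 kb from the Acot1 TSS, downstream of the gene (chr12:84019047-84019363), was at 46.3 ± 5.88 and 32.9 ± 4.97 (0.49, limma adjusted p = 0.0466), and was lost in 10 of 17 alternatives, among them without any of KO 1_2, KO 1_3, KO 3, WT 1_2 or WT 3 (0.0789 to 0.172). The Acot2 promoter was level, at 69.5 ± 7.78 and 69.6 ± 6.93. Acot1 and Acot2 are closely related copies, so reads in their transcribed parts can be hard to place.

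Angptl4 encodes a secreted inhibitor of lipoprotein lipase and Pdk4 the kinase that shuts off pyruvate dehydrogenase and so favours fatty acid use. All 3 tested distal regions of Angptl4 were lower, while its promoter was not called. The strongest, in an intron 2.40 kb from the TSS (chr17:33779232-33779921, sequence above), had scaled tags of 151, 141, 114 and 120 in KO and 161, 201, 203 and 223 in WT. The groups did not overlap (−0.58, SE 0.102, limma adjusted p = 5.55e-05), and this call was lost only on fold enrichment (−0.13, adjusted p = 0.590 in limma), beside a local background lower in KO by −0.44. A region over a coding exon (chr17:33780419-33780863) was at 109 ± 11.1 and 136 ± 9.16 (−0.32, limma adjusted p = 0.0326), with KO 1_3 level with WT 1_2, and a region downstream (chr17:33770860-33771336) at 46.9 ± 5.96 and 65.9 ± 11.7 (−0.48, 0.0272).

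These last 2 calls depended on single libraries. The exon call was lost without any of KO 1_2, KO 2, KO 3, WT 1_3, WT 3 or WT 4 (limma adjusted p 0.0565 to 0.114) and turned to 0.14 on fold enrichment. The downstream call was lost without any of KO 1_2, KO 2, WT 3 or WT 4 (0.0585 to 0.104). Each was also lost in 5 other alternatives. The Angptl4 promoter (chr17:33781081-33781588) had 83.6, 90.9, 75.6 and 83.1 in KO and 72.5, 93.0, 83.3 and 99.3 in WT (−0.06, limma adjusted p = 0.817). The summit of this promoter region lay in a coding exon, 0.559 kb inside the gene. Only the 1 kb limit sets it apart in class from the lower exon region, 1.22 kb from the TSS. The Pdk4 promoter (chr6:5495910-5496823) had 64.7, 72.7, 64.3 and 80.7 in KO and 69.6, 56.5, 77.8 and 64.3 in WT (0.08, limma adjusted p = 0.761), and its groups overlapped fully. The single tested distal region of Pdk4 was at −0.21 and was not called.

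KO and WT values did not overlap at 19 of the 24 called member regions, close to the share over all called regions (79.9%, against 16.2% of all tested regions). The calls that held in all 17 alternatives were those of the Hadhb, Cpt2 and Prap1 introns (lower) and of the regions upstream of Acot1 and Decr1 (higher), and 14 of 24 held when each library was left out in turn.

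The total number of member regions with a peak overlapped between the genotypes, whereas the number of promoters did not. A peak was present in 122, 127, 121 and 129 member regions in KO and in 130, 137, 133 and 128 in WT, and KO 3 exceeded WT 4. Of promoters alone, 50, 50, 50 and 49 had a peak in KO and 53, 53, 55 and 52 in WT. Of the 55 member promoters, 49 (89.1%) had a peak in every library, against 81.6% of all promoter regions. The gap in promoter numbers thus rests on the few others, and no count per library was made over all promoters. Of distal regions, 72, 77, 71 and 80 had a peak in KO and 77, 84, 78 and 76 in WT, with overlap. As shares, 86.0 ± 2.66% of member regions in KO and 91.0 ± 2.70% in WT had a peak, against 82.3 ± 2.29% and 86.6 ± 5.09% of all 72711 regions. The WT lists were longer, with a mean of 66230 peaks against 62510 in KO. The mean difference of −7.25 member regions (KO minus WT) shrank when the lists were cut to equal length. Of the 33 regions without a peak in every library, 22 (66.7%) had more WT than KO peaks and 7 had more KO peaks, against 51.7% with more WT peaks over all such regions. Just inside the limit of 2 libraries were 8 regions with a median of 19 tags, 7 of them in WT alone and 1 in a library of each genotype. Such regions of the whole series were 2150 in WT alone, 829 in KO alone and 2287 in 1 library of each. Just outside it were 14 regions with a peak in 1 library, with a median of 15 tags, 9 in WT and 5 in KO.

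No member promoter with a DR1 match at up to 2 mismatches was called: Acadvl was at 0.04, Echs1 at 0.10, Etfa at 0.15, Slc25a20 at 0.32 and the Cpt1a region with the match at −0.05 (log2). Calls were also few among all 266 tested promoters with a match, of which 7.89% were lower and 3.76% higher. AGGTCA alone was found in 7 of 55 member promoters (12.7%), all of them own promoters, against 9.13% of all promoters, and in 13.3% of member distal regions against 16.8%. The longer PU.1 sequence GAGGAAGT was found in 0 of 55 member promoters against 4.69% of all promoters, and in 11.1% of member distal regions against 12.5%. It contains GAGGAA, so that the counts of these motifs overlap. Over all distal regions with a DR1 match in the series, 18.9% were lower and 2.82% higher (median −0.11), whereas only 2 of the 63 tested member distal regions held one. That no match was found says only that these letters are not in the window searched.

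A second list held 57 further genes of fatty acid uptake, oxidation and its control, 56 of which had a region. Taking the strongest promoter region of each gene, 43 were open in all 8 libraries, 5 of these were higher, among them those of Esrra (0.28), Slc22a5 (0.24), Acadsb (0.26) and Pdk1 (0.28, log2), and 0 were lower. Of their 86 tested distal regions 11 (12.8%) were lower and 6 (6.98%) were higher, against 8.71% and 5.4% of all distal regions, with a median of 0.04. Of their 72 tested promoters 2 (2.78%) were lower and 6 (8.33%) higher, close to the 2.77% and 6.84% of all promoters, with a median of 0.10.

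The smallest p-values in the second list came from both directions. An intron region of Scp2, the sterol carrier and peroxisomal thiolase gene (chr4:108058084-108058634, also in an intron of Podn), was at 52.5 ± 3.16 in KO and 97.3 ± 3.29 in WT (−0.89, limma adjusted p = 9.96e-07). A weaker promoter region of the thioesterase Acot7 (chr4:152185165-152186036) was at 71.2 ± 13.2 and 135 ± 35.0 (−0.91, 3.32e-06), an intron region of Acot11 (chr4:106788521-106789092) at 41.3 ± 6.43 and 78.8 ± 4.21 (−0.93, 5.17e-06), and a region near Acaa1b (chr9:119164726-119165250) at 229 ± 21.7 and 326 ± 15.8 (−0.51, 1.19e-05). Regions in introns of Ppard, which encodes an RXR partner, rose from 156 ± 17.7 to 237 ± 18 (chr17:28280151-28280887, 0.60, 3.92e-06) and from 144 ± 14.6 to 216 ± 19.8 (chr17:28259830-28260446, 0.58, 1.26e-05). All these p-values are from limma with Benjamini-Hochberg adjustment.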

How the data were processed

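According to the study's methods and the labels, read pairs were trimmed (Cutadapt) and mapped to mm10 (Bowtie2) by the authors, who removed duplicates marked with Picard and called peaks in each library separately with MACS3 on reads extended to 200 bp. A deposited file holds, for every peak, coordinates, a score (not used), the fold enrichment (a ratio to the local background), the −log10 p-value and −log10 q-value, and the summit. The deposited lists hold no read counts.

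Summit tags and the local background were solved from the fold together with the −log10 p-value. Tags came out whole, within a relative tolerance of 2e-05, for 100% of peaks in each library, and the precision of each value is limited by these tag numbers. Log2(tags + 0.5) was centred on the library median and tested with limma 3.58.1 (trend) in R 4.3.3, with Benjamini-Hochberg adjustment over 47499 regions. The remaining steps used Python 3.11.15, numpy 2.4.6, pandas 2.3.3, scipy 1.17.1, pysam 0.24.0 and matplotlib 3.10.9. The script was tested on simulated data. Sequences were read from the mm10 genome.

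The members and lists were chosen with earlier results of these data known. Named were the 12 called regions of smallest p, regions with a peak in 4 of 4 libraries of a genotype against 0 or 1 of the other, or 3 against 0, the largest differences, the distal regions with most tags, and 5 promoters. The other called regions were named after their values were seen, as was the printing of 29 bases around DR1 matches in place of the whole summit window. Groups come from the sample titles. Alternatives varied scaling, pseudocount, filters, windows, merging, thresholds, averaging of replicates, a replicate block and leaving out each library. The values of 1 gene of the second list are not reported here.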

Additional observations from a re-analysis of the deposited data

Results flagged for a closer look

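In 106 groups of 4 libraries (each genotype at every own promoter and every named tested region, and the number of member regions with a peak), the gap of the most distant library to its neighbour was set against the range of the group. The share was above Dixon's critical value for 4 values in 3 groups, where chance gives about 1 in 20.

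In the Acsl3 intron region KO 1_2 stood at 191 scaled summit tags and the other KO libraries at 168 to 172 (ratio 0.838), and it was the KO library nearest to the WT values. At the Acsl5 promoter KO 1_3 had 83.9 and the others 93.6 to 93.8 (ratio 0.979). At the Etfb promoter WT 4 had 220 and the others 188 to 191 (ratio 0.911).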

How the results depend on the processing

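In the main analysis 14 member regions were lower and 10 higher, the distal median was −0.14, and 14 of the 21 tested regions named by rule were called. Scaling to background depth gave 6 lower and 3 higher regions, a distal median of −0.195 and 7 named calls. Fold enrichment gave 3 lower regions, a distal median of 0.00818 and 7 named calls, and reversed the Cpt1a intron (0.00818), the Angptl4 exon (0.141), the Acox3 intron (0.0514) and the region near Ech1 (0.0663), whose local background was lower in KO. Averaging the KO pairs that agreed within sampling noise, chosen after seeing the data, gave 9 lower and 6 higher, with fewer samples. Gene bodies alone held 6 higher regions and a distal median of −0.286. Lists of equal length left 1 WT-only region and a mean of −1.75 member regions (KO minus WT) against −7.25. Where no cause is visible from the setting itself, it was not tested.

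With the replicate number as a block, 9 regions were lower and 11 higher, and the distal median was −0.0705, and the Hadh promoter was not called (0.275, limma adjusted p = 0.0756). The deviations of same-numbered libraries correlated at 0.0555 (1_2), 0.116 (1_3) and 0.0368 (3), so the numbers were not taken to pair the libraries, although each of these KO libraries correlated best with its own number.

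Leaving out each library in turn gave 9 (without KO 2) to 15 lower regions, 8 to 12 higher, 2 WT-only regions throughout and 0 to 1 KO-only (1 without KO 1_2), a promoter median of 0.0808 to 0.135, a distal median of −0.184 to −0.0955, a mean number of −8.42 to −4.5 and 13 to 14 named calls. Quantile normalisation, a pseudocount of 5 and the tags of the peak nearest to the region's summit changed no call among the 31 named and called regions tested. Depth limits the weak regions: a summit of 6 to 9 tags was the smallest called, and the absence of a peak is not the absence of open chromatin.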
